A study of Homo sapiens with 6 samples.

Results

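In Caco-2 cells exposed to hypoxia and then reoxygenation (H/R), the glucose transporter gene SLC2A1, the hexokinase gene HK2 and the kinase gene PDK1 rose by 3.39 ± 0.17, 3.48 ± 0.23 and 3.51 ± 0.35 on the log2 scale (SE, n = 3 samples a group), and each was among the 10 largest rises of the deposited table. TXNIP, a brake on glucose uptake, had the second largest fall (-3.19 ± 0.23). These places are for the log2 scale used here, and they can shift with another scale. The set described here holds 8 genes, chosen by name for their steps on the path of glucose to lactate. They are SLC2A1, HK2, PFKP, PFKFB4, ENO2, LDHA, PDK1 and TXNIP, and each has a row among the 2206 rows that stay when identical copies are counted once. LDHA was listed with a numbered copy of identical values, which was dropped. Of these 8 genes, 7 rose and 1 fell after H/R, in a table where 46.1% of tested rows rose and 52.9% fell. The 8 were chosen with earlier results of these data known, so this count is a description.

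Caco-2 is an established human line from a colorectal adenocarcinoma, labelled as wild-type intestinal epithelial cells in all samples. Poly(A) RNA was sequenced in 3 H/R samples and in 3 control samples. The model was built to mimic ischemia and reperfusion of the intestine, and the comparison asks which genes differ between the 2 states. The study's methods list several reoxygenation times and mention transfection with small interfering RNAs, but the sources used here do not say which time was sequenced or whether any of these 6 samples was transfected. Whether replicates are separate cultures is not stated either, and the p-values cover only the spread among the 3 libraries of each group, technical or not.

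Levels are given in FPKM, fragments per kilobase of transcript scaled to the mapped fragments of each library, which can be compared between genes because they are per length. The table holds rows already selected as changed. Where H/R and control means were both above 0, which held for 2184 rows, they differed at least 2-fold in 92.3%, and the depth of the libraries is unknown. Among the 2034 rows with a mean of at least 1 FPKM, which were tested with limma on log2(FPKM + 1), 46.1% rose and 52.9% fell at an adjusted p under 0.05. A call in this table is therefore the usual case, and sizes, levels and spreads carry more than the calls do. Of the 16 markers listed for intestinal epithelium, 5 were in the table, with a summed level of 114 to 147 FPKM after H/R and 241 to 331 FPKM in control. ALPI, FABP1 and LCT fell, and KRT20 and SI were under the minimum and not tested. KRT20 was higher after H/R, at 1.32, 1.68 and 1.61 FPKM against 0.19, 0.35 and 0.43 FPKM in control. SI was lower, at 0.43, 0.7 and 0.31 FPKM against 0.98, 1.47 and 1.69 FPKM. For other cell types the summed levels after H/R against control were 27.3 to 34.6 against 20.3 to 28.2 FPKM for 2 of 6 fibroblast genes, 7.94 to 11.4 against 3.15 to 4.12 FPKM for 1 of 5 endothelial genes and 4.91 to 5.96 against 10.4 to 15.7 FPKM for 1 of 5 immune genes. The 2 fibroblast genes went opposite ways, with log2 changes of 1.51 for PDGFRA and -1.04 for COL1A1. No marker in the table was listed at 0 in any sample, and the part of these markers in the results below was not tested. In bulk RNA, a change in the share of a cell type and a change in RNA per cell cannot be told apart.

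Glucose enters most cells through facilitative transporters of the SLC2A family and is trapped by hexokinase as glucose 6-phosphate. Phosphofructokinase then commits the sugar to glycolysis, enolase acts near the end of the path, and pyruvate is either reduced to lactate by lactate dehydrogenase or carried into mitochondria, where the pyruvate dehydrogenase complex turns it into acetyl-CoA. In low oxygen the hypoxia-inducible factor (HIF) is stabilised, binds short DNA elements with the core ACGTG, and raises many genes of this path, together with the kinase that switches pyruvate dehydrogenase off. TXNIP works the other way. It is an alpha-arrestin that promotes the removal of glucose transporters from the cell surface, and its gene is driven by the glucose-sensing factor MondoA with its partner MLX through E-box-like elements.

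The 250 bases before each RefSeq transcript start of the 8 genes (build GRCh38.p14) were searched on both strands. They were searched for ACGTG, for the full E-box CACGTG and for CACGAG, a part of the E-box-like element in TXNIP. All 8 genes matched by symbol, with 15 start windows. ACGTG was in 7 of the 15 windows and in 6 of the 8 genes, against 18.5% of the 35116 windows and 21.7% of the 27305 genes in the RefSeq table. The gene that fell, TXNIP, is among the 6, in the window of a start downstream of the first, and the windows of SLC2A1 and PFKFB4 held none of these letters. CACGTG, which contains ACGTG on each strand, was in 1 window each of HK2 and LDHA, against 6.34% of all windows. CACGAG was in 3 windows, 1 of TXNIP and 2 of PFKP, against 5.58% of all windows. CCAAT, also searched, was in 4 of the 15 windows (26.7%), against 32.0% of all windows. By gene it was in 4 of the 8, against 37.0% of all genes, so the direction depends on the measure. The RefSeq windows set beside these were not matched to them in number per gene or in GC content. A match of letters is a description and not a bound site, and the sources used here do not say which start these cells used.

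The stretches below are shown because they hold matches in genes that rose and in the gene that fell. They are written in the direction of transcription, with ACGTG or its reverse complement in capitals, except in TXNIP, where CACGAG is in capitals. The HK2, PFKP and TXNIP stretches are whole windows (chr2:74834920-74835169, plus strand; chr10:3068939-3069188, plus strand; chr1:145996580-145996829, minus strand). Those of LDHA (chr11:18394473-18394502 and chr11:18394366-18394395), PDK1 (chr2:172556060-172556089) and ENO2 (chr12:6914450-6914479), all on the plus strand, are 30 bases around the matches.
HK2: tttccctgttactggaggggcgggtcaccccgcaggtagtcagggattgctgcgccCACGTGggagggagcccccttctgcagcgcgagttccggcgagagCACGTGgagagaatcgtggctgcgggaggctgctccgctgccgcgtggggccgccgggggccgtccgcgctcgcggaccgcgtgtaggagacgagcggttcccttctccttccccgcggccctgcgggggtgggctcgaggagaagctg
PFKP: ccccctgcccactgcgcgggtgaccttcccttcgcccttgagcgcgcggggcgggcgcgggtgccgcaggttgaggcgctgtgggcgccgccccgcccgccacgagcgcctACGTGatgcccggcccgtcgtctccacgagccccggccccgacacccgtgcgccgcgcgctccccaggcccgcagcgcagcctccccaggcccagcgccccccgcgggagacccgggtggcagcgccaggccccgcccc
TXNIP: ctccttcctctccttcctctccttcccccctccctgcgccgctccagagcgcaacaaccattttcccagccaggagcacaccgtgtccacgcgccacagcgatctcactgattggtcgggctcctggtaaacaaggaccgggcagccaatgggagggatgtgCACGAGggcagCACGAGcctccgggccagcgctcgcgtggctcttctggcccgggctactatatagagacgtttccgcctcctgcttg
LDHA, nearer the start: tcaCACGTGggttcccgCACGTccgccggc
LDHA, further from the start: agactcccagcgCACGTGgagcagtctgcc
PDK1: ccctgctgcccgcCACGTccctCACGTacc
ENO2: acccgcgctcgtACGTGcgcctccgccggc

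To follow the path from the cell surface inward, uptake was examined first. SLC2A1, which encodes the glucose transporter GLUT1, stood at 1750.35, 1509 and 1415 FPKM in H/R replicates 1, 2 and 3, against 169, 141 and 134 FPKM in control replicates 1, 2 and 3. The lowest H/R sample was 8.40 times the highest control sample. On the log2(FPKM + 1) scale the change was 3.39 ± 0.17 (SE, 95% interval 3.02 to 3.76, adjusted p = 2.21e-06), the tenth largest rise in the table. By mean level, SLC2A1 took place 9 of 2206 rows after H/R and place 181 in control.

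HK2 encodes hexokinase 2, the inducible isoform that binds mitochondria and phosphorylates glucose on entry. Its levels were 52.6, 85.3 and 71.3 FPKM in the H/R samples, against 4.27, 5.43 and 6.16 FPKM in the control samples. The groups were 8.54-fold apart at their closest samples, although the level in control was low. The log2 change was 3.48 ± 0.23 (95% interval 2.96 to 3.99, adjusted p = 7.32e-06). The spread of the 3 H/R samples was wider than for SLC2A1, with a coefficient of variation of 23.5% against 11.1%.

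**Figure D1:**
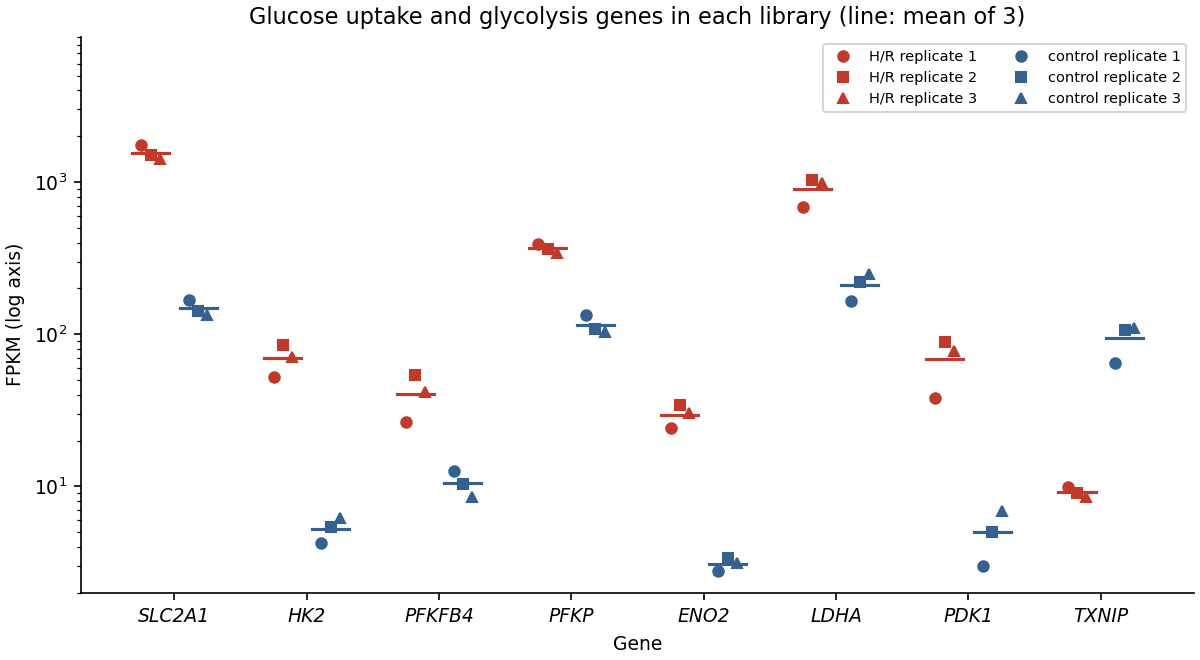
Levels of the 8 genes in FPKM on a log axis, with red symbols for the 3 H/R libraries and blue symbols for the 3 control libraries, and a line at each mean. In 7 genes all red symbols lie above all blue ones, and in TXNIP all lie below, with SLC2A1 highest after H/R at 1415 to 1750.35 FPKM.

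The commitment step holds a pair of genes. PFKP, the platelet isoform of phosphofructokinase 1, had 393, 365 and 342 FPKM in the H/R samples, against 133, 108 and 103 FPKM in the control samples, where it was already abundant. Its log2 change was 1.67 ± 0.17 (adjusted p = 3.69e-05), and its coefficient of variation of 6.96% after H/R was the lowest of the 8 genes. PFKFB4 encodes a bifunctional enzyme that makes and degrades fructose 2,6-bisphosphate, the main allosteric activator of phosphofructokinase 1. It had 26.5, 53.9 and 41.9 FPKM in the H/R samples, against 12.6, 10.4 and 8.48 FPKM in the control samples. H/R replicate 1 was low and control replicate 1 was high, which left the smallest gap of the 8 genes, 2.09-fold between the closest samples. The log2 change of PFKFB4 was 1.82 ± 0.27 (95% interval 1.21 to 2.43, adjusted p = 2.35e-04). PFKP and PFKFB4 had the smallest rises of the 7 in this fit. Their order turned under quantile normalization (2.07 and 1.80) and without H/R replicate 2 (1.68 and 1.59). LDHA (1.92) stood below PFKFB4 (1.95) without control replicate 1, and also without both replicates numbered 1 (2.11 and 2.22).

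ENO2 encodes the gamma subunit of enolase, known as the neuronal isoform. It had 24.1, 34.4 and 30.15 FPKM in the H/R samples, against 2.79, 3.37 and 3.16 FPKM in the control samples, the lowest control level of the 8 genes. The log2 change was 2.88 ± 0.21 (95% interval 2.41 to 3.35, adjusted p = 1.05e-05), and the ratio of mean FPKM was 9.52. At levels of this size the pseudocount of 1 compresses the log2 change, which for ENO2, HK2 and PDK1 is therefore smaller than the log2 of their ratio of means.

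At the branch of pyruvate, LDHA and PDK1 rose together. LDHA, the A subunit of lactate dehydrogenase, which reduces pyruvate to lactate, had 689, 1028 and 983 FPKM in the H/R samples and 164, 219 and 248 FPKM in the control samples. Its log2 change was 2.09 ± 0.22 (95% interval 1.61 to 2.57, adjusted p = 4.37e-05). PDK1 encodes pyruvate dehydrogenase kinase 1, which phosphorylates and switches off the pyruvate dehydrogenase complex. It had 38.4, 89.6 and 77.8 FPKM after H/R, against 3.01, 5.04 and 6.92 FPKM in control, with replicate 1 lowest in both groups. The log2 change of PDK1 was 3.51 ± 0.35, the eighth largest rise in the table, with the widest interval of the 8 genes (2.73 to 4.28, adjusted p = 3.66e-05). Its place beside HK2 and SLC2A1 turned on single libraries, since PDK1 was lowest of these 3 genes, at 3.27, 3.37 and 3.24, when H/R replicate 2, H/R replicate 3 or control replicate 1 was left out. Its coefficient of variation was 39.1% after H/R and 39.2% in control, the highest of the set in each group.

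TXNIP went the other way. Its levels were 9.86, 9.11 and 8.47 FPKM in the H/R samples, against 64.5, 107 and 111 FPKM in the control samples. The highest H/R sample was 6.54 times below the lowest control sample, and the log2 change of -3.19 ± 0.23 (95% interval -3.71 to -2.67, adjusted p = 1.05e-05) was the second largest fall in the table. The H/R samples were close to each other (coefficient of variation 7.61%), whereas the control samples spread by 27.2% because control replicate 1 was low.

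**Figure D2:**
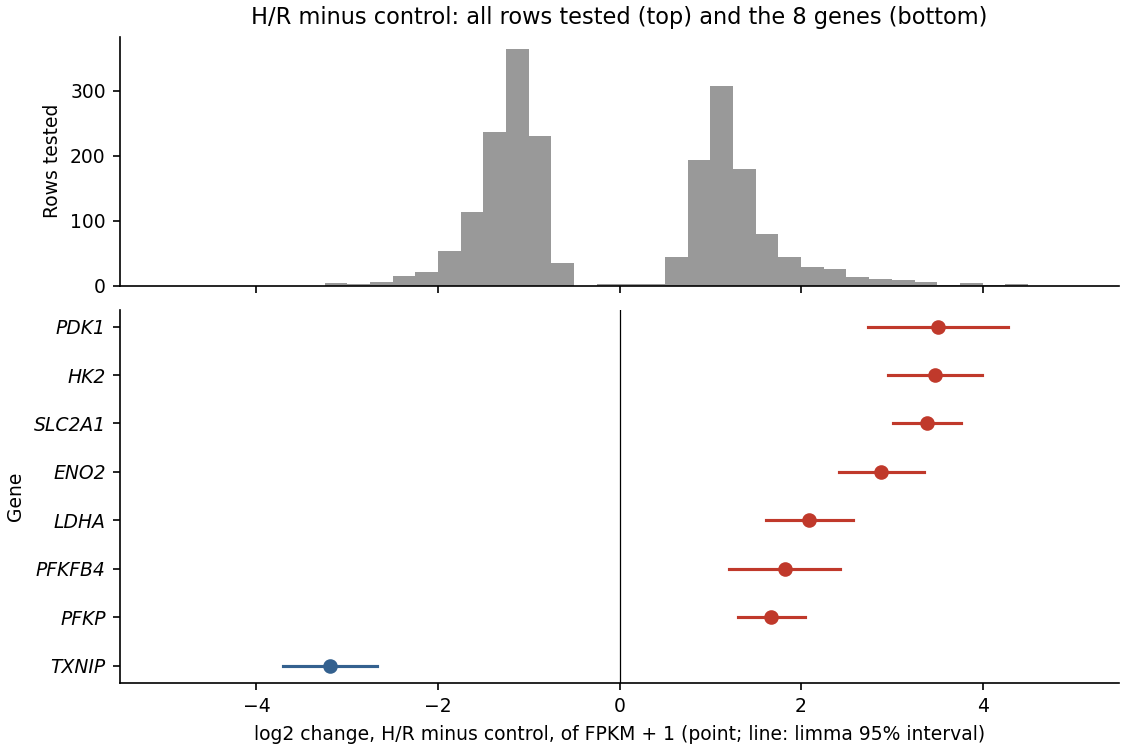
Number of tested rows by log2 change of FPKM + 1, H/R minus control (top), and the log2 change of each of the 8 genes with its limma 95% interval (bottom). The rows form 2 humps with few rows near 0, and PDK1, HK2 and SLC2A1 (3.51, 3.48 and 3.39) and TXNIP (-3.19) lie in the outer tails.

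All 8 genes had groups that did not overlap, and so did most rows of the table, with 42.6% of tested rows higher in every H/R sample and 52% lower in every H/R sample. The median log2 change of the 7 genes that rose was 2.88, against 1.19 over the 937 rows that rose, and TXNIP compares with a median of -1.17 over the 1076 rows that fell. The 8 genes were chosen with earlier results of these data known, so these medians are a description. ENO2, LDHA, PFKFB4 and PFKP held places 27, 89, 124 and 160 among the rises. All places among rises and falls are for log2(FPKM + 1), which compresses changes at low levels. By ratio of mean FPKM, STOM (15.4) and DLGAP1 (14.2), with smaller log2 changes, stood above PDK1 (13.7). RBP5 (0.042), at very low levels after H/R, stood below TXNIP (0.097).

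To compare the changes with each other, the difference of log2 values between 2 genes was taken within each sample and compared between H/R and control for all 28 pairs. An exact permutation test of 3 against 3 cannot give a two-sided p below 0.1, and 20 pairs reached it (0.14 adjusted over the 28 pairs), so no pair can pass the threshold. With the pseudocount of 1, PDK1, HK2 and SLC2A1 differed from each other by 0.029 to 0.12, with overlapping ratios in each pair. ENO2 rose less than HK2 by 0.59 with no overlap, while its differences from PDK1 (0.62) and SLC2A1 (0.51) overlapped. LDHA, PFKFB4 and PFKP differed from each other by 0.14 to 0.42 with overlap, and each was apart from the 4 genes above by 0.79 or more. These distances depend on the settings. With a pseudocount of 0.1 the log2 changes of PDK1, HK2, SLC2A1 and ENO2 were 3.74, 3.68, 3.40 and 3.20, and under quantile normalization LDHA stood at 2.57, nearer to ENO2 (2.88) than to PFKFB4 (1.80). The 7 pairs with TXNIP were apart by 4.86 to 6.69.

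The order of the levels also changed with H/R. After H/R it ran SLC2A1, LDHA, PFKP, HK2, PDK1, PFKFB4, ENO2 and TXNIP, and the neighbours HK2 and PDK1, PDK1 and PFKFB4, and PFKFB4 and ENO2 had overlapping ranges. In control it ran LDHA, SLC2A1, PFKP, TXNIP, PFKFB4, HK2, PDK1 and ENO2, and the neighbours LDHA and SLC2A1, PFKP and TXNIP, HK2 and PDK1, and PDK1 and ENO2 overlapped. TXNIP thus stood lowest of the 8 after H/R, apart from ENO2 in every sample, and in control it stood 8.95-fold above PFKFB4 by mean level. HK2 and PDK1 lay within 1.06-fold of each other by mean in both groups.

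A ratio of 2 genes inside one library does not depend on how the libraries are scaled to each other. The ratio of SLC2A1 to TXNIP was 178, 166 and 167 in the H/R samples, against 2.61, 1.33 and 1.21 in the control samples, a 105-fold difference of the geometric means. For HK2 to TXNIP it was 5.34, 9.36 and 8.42 after H/R and 0.0662, 0.0509 and 0.0557 in control, so that HK2 exceeded TXNIP in every H/R sample and in no control sample. Control replicate 1 stood highest of the control samples in each of these, where TXNIP was low.

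For some of the 8 genes, a gene at a nearby step went the other way, and the pairs given here were picked after the values were seen. LDHD, which oxidises D-lactate in mitochondria, had 2.91, 5.93 and 4.78 FPKM in the H/R samples, against 34.4, 29.8 and 28.2 FPKM in the control samples, and the ratio of LDHA to LDHD was 173 to 237 after H/R and 4.78 to 8.77 in control. PDK2, a widely expressed kinase of the same complex as PDK1, had 8.86, 8.94 and 7.35 FPKM after H/R and 23.9, 19.2 and 17.8 FPKM in control. The ratio of PDK1 to PDK2 was 4.33 to 10.6 after H/R and 0.126 to 0.389 in control, above 1 in all H/R samples and below 1 in all control samples. FBP1 encodes fructose 1,6-bisphosphatase, which runs the reverse of the phosphofructokinase reaction, and the ratio of PFKP to FBP1 was 380 to 2458 after H/R and 28.3 to 37.6 in control. FBP1 itself was at 0.16, 0.96 and 0.31 FPKM after H/R, so the upper end of this ratio rests on very low values. MPC2 encodes a subunit of the mitochondrial pyruvate carrier, and the ratio of LDHA to MPC2 was 6.29 to 7.35 after H/R and 0.603 to 0.92 in control.

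**Figure D3:**
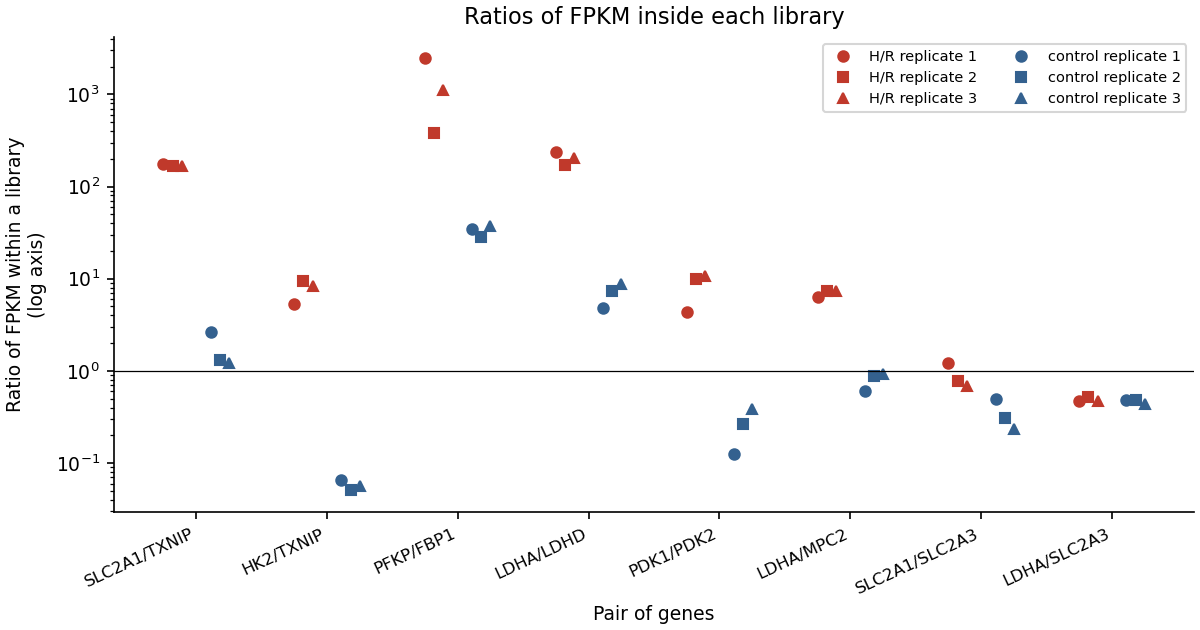
Ratio of FPKM of 2 genes inside each library on a log axis, red for the 3 H/R libraries and blue for the 3 control libraries, with a line at a ratio of 1. In 7 of the 8 ratios the groups are apart, and the ratio of LDHA to SLC2A3 lies at 0.474 to 0.525 in red and 0.437 to 0.488 in blue.

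In all, 8 such ratios were computed, chosen after the values were seen, and 7 of them did not overlap between the groups (exact permutation test, p = 0.1 each, 0.114 adjusted over the 8). The exception by the same exact permutation test was LDHA to SLC2A3, at 0.474, 0.525 and 0.476 after H/R and 0.488, 0.479 and 0.437 in control (p = 0.6). SLC2A3 encodes the high-affinity transporter GLUT3, and in every control sample it was listed above SLC2A1. Its level is uncertain, because reads can be split between SLC2A3 and its close copy SLC2A14. The ratio of SLC2A1 to SLC2A3 was 1.2, 0.771 and 0.686 in the H/R samples, against 0.501, 0.31 and 0.236 in the control samples, so that SLC2A1 exceeded SLC2A3 in H/R replicate 1 and in none of the other libraries.

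The other genes of glucose metabolism in the table came from 11 lists with 148 genes, 140 of them outside the 8. Of these, 19 were tested, 8 rose and 11 fell, shares near those of the whole table (46.1% and 52.9%). Genes of the lists that are not in the table were not analysed here.

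Of 16 glucose transporters listed, 5 were in the table, and 4 of them rose, SLC2A1 included, where 46.1% of all tested rows rose. SLC2A3 had 1454, 1957 and 2064 FPKM in the H/R samples, against 336, 457 and 567 FPKM in the control samples (log2 change 2.02 ± 0.22, adjusted p = 5.96e-05). SLC2A14 is a close copy of SLC2A3, and its log2 change was 1.97. Reads of the 2 genes can be split between them, so the levels and changes of both are uncertain. SLC5A1, the sodium-coupled transporter of the intestinal brush border, rose at a low level (2.53 ± 0.841 against 0.913 ± 0.335 FPKM, SD, n = 3 each, log2 change 0.87). SLC2A6, a transporter of the lysosomal membrane, fell by 0.94 on the log2 scale, and its numbered copy with other values by 0.84.

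Of 28 genes listed for the steps of glycolysis, 4 were in the table and these 4 rose, where 46.1% of all tested rows rose. HK2, PFKP and ENO2 belong to the 8, chosen with earlier results of these data known. The gene not among the 8 is PGK1, the first ATP-forming enzyme of the path, at 1142, 939 and 952 FPKM after H/R and 338, 409 and 366 FPKM in control (log2 change 1.44 ± 0.16, adjusted p = 6.44e-05). PFKFB4 was the 1 gene in the table of 5 listed for fructose 2,6-bisphosphate. Of 13 genes of lactate and pyruvate handling, LDHA and SLC16A3 rose and LDHD and MPC2 fell. SLC16A3 encodes MCT4, a carrier that exports lactate, and had 41.8, 37.8 and 24.8 FPKM in the H/R samples, against 6.31, 6.5 and 6.78 FPKM in the control samples (log2 change 2.22 ± 0.23). LDHD fell by 2.56 and MPC2 by 1.04.

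Of 13 genes of the pyruvate dehydrogenase complex and its regulators, PDK1 rose and PDK2 fell by 1.18. Of 13 genes listed for alpha-arrestins, thioredoxins and MondoA, 3 were in the table and these 3 fell, where 52.9% of all tested rows fell. Beside TXNIP they were ARRDC4, its closest relative and also a target of MondoA, at 0.24, 0.73 and 0.47 FPKM after H/R and 2.65, 3.21 and 6.27 FPKM in control (log2 change -1.72 ± 0.27, adjusted p = 2.89e-04), and TXN2, the mitochondrial thioredoxin (-1.10). ARRDC4 was low in every sample, but its groups did not overlap. EPAS1, which encodes HIF-2 alpha, was the 1 gene in the table of 10 HIF subunits and oxygen sensors, and had 71.2, 67.5 and 70.7 FPKM after H/R and 30.3, 38.6 and 36.0 FPKM in control (log2 change 0.98 ± 0.17).

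**Figure D4:**
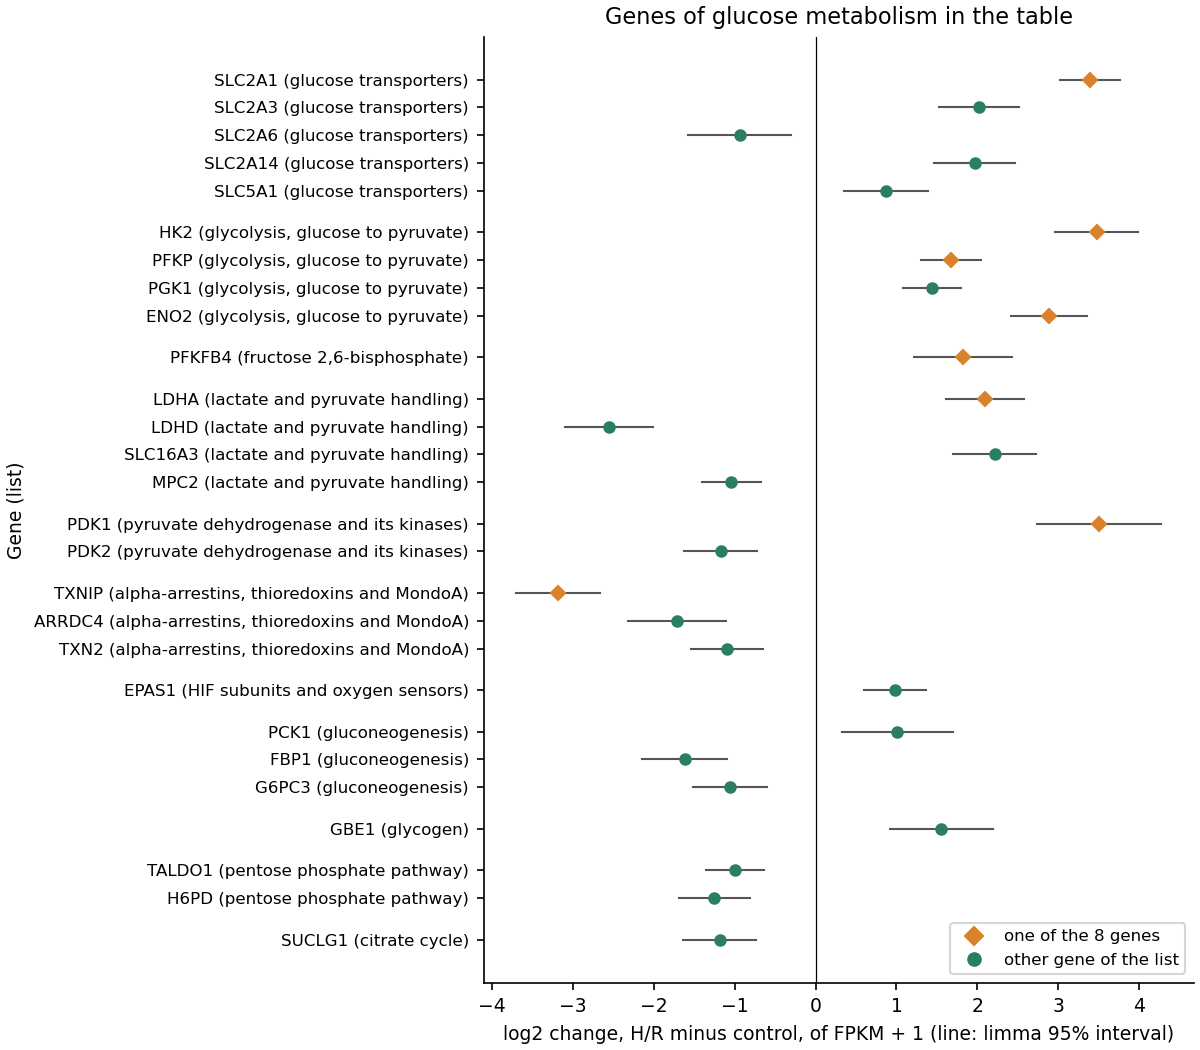
log2 change of FPKM + 1, H/R minus control, with the limma 95% interval, for the tested genes of the 11 lists, orange diamonds for the 8 genes and green circles for the others. The orange diamonds lie to the right except TXNIP (-3.19), and the green circles lie on both sides, from LDHD (-2.56) to SLC16A3 (2.22).

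Genes of the other routes went both ways. Of 9 genes of gluconeogenesis, 3 were in the table. FBP1 fell by 1.62 and G6PC3, a ubiquitous glucose 6-phosphatase, by 1.05, while the cytosolic PEP carboxykinase gene PCK1 rose by 1.01 at a low level (2.14 ± 1.55 against 0.467 ± 0.301 FPKM). Of 9 genes of the pentose phosphate pathway, TALDO1 and H6PD were in the table and fell by 1.00 and 1.25, and of 16 citrate cycle genes, SUCLG1, a subunit of succinyl-CoA ligase, fell by 1.19. GBE1, the glycogen branching enzyme, was the 1 gene in the table of 16 glycogen genes, and rose to 8.17, 14.0 and 14.2 FPKM in the H/R samples, against 2.56, 2.83 and 5.06 FPKM in the control samples (log2 change 1.55 ± 0.29).

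Patterns over the 6 samples were compared among rows with a gene symbol. The measure was the root mean square difference of log2 values after subtracting each row's control mean. The rows most like SLC2A1 were DLGAP1 (0.22), DUSP5 (0.23) and S100P (0.30). Those most like TXNIP were MAT1A (0.28), METTL7B (0.37) and RBP5 (0.46). These distances rest mostly on the size of the change, since the groups lie far apart.

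The libraries of a group differed along the GC content of the transcripts, and the 8 genes followed this in part. Per 10 points of GC, rows stood higher than their group mean by 0.16 on the log2 scale in H/R replicate 1 and by 0.26 in control replicate 1, and the slopes were -0.12 in H/R replicate 3 and -0.26 in control replicate 3. PDK1 has the lowest GC content of the 8, at 42.4%, and replicate 1 deviated from the group mean by -0.73 in H/R and by -0.52 in control. PFKP and SLC2A1, at 57.9% and 55.8%, lay above it by 0.10 and 0.17 in H/R replicate 1 and by 0.22 and 0.19 in control replicate 1. ENO2, at 55.2%, went against this direction in both groups, with -0.27 in H/R replicate 1 and -0.11 in control replicate 1. PFKFB4, at 56.8%, went against it in H/R, where replicate 1 deviated by -0.55 against 0.26 in control replicate 1. TXNIP, at 45.0%, deviated by 0.10 in H/R replicate 1 and by -0.50 in control replicate 1. The part of GC content in these deviations was not tested. With replicate 1 left out of each group, which was tried only once the data had been seen, the log2 changes were 2.22 for PFKFB4, 3.61 for PDK1 and -3.49 for TXNIP.

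**Figure D5:**
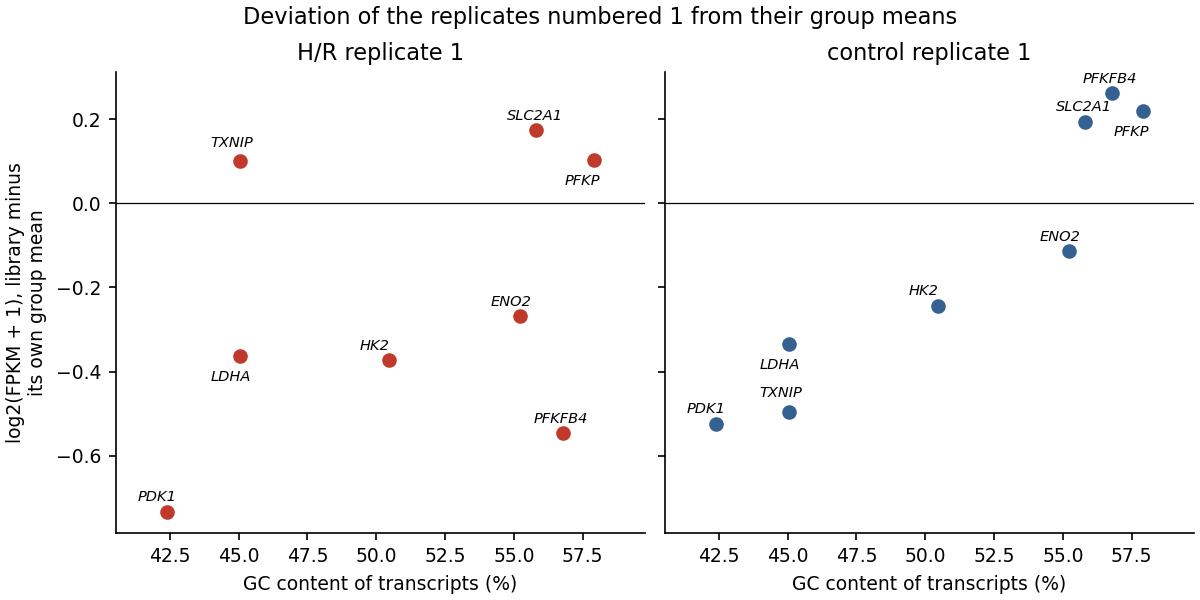
Deviation of the libraries numbered 1 from their own group mean, in log2(FPKM + 1), against the median GC content of the protein-coding transcripts of each of the 8 genes, for H/R (left, red) and control (right, blue). In H/R the values run from -0.73 in PDK1 to 0.17 in SLC2A1, and in control from -0.52 in PDK1 to 0.26 in PFKFB4.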

How the data were processed

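RNA-seq of Caco-2 cells was analysed in 3 H/R and 3 control samples, grouped by their titles. The authors deposited 1 table of log2 values in columns named for FPKM. Undoing the logarithm gave multiples of 0.01 FPKM in 100% of values (tolerance 1e-05), so the deposited values are log2(FPKM + 1). The aligner, the counting method and the rule that selected the 2257 rows are not stated in the sources used here, and the submitters' notes name mouse builds although the genes are human, so no coordinates were taken from the files. Counts and depth are unknown. No column of per-sample values was left unused, and the table has no columns of the authors' own comparisons.

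Identical copies of a symbol were dropped (51 rows). Rows with a mean of at least 1 FPKM were tested with limma version 3.58.1 in R version 4.3.3 (group only, mean-variance trend, two-sided) on log2(FPKM + 1), with Benjamini-Hochberg adjustment over all rows tested and a threshold of 0.05. The model was tested on simulated data in which most rows were unchanged, unlike this table, where most tested rows were called. Pairs of genes and ratios were compared by exact permutation tests (scipy version 1.17.1). Promoters came from RefSeq (GRCh38.p14), and GC content is the median over protein-coding transcripts of GENCODE release 29, found for 94.8% of tested rows. The 8 genes and the lists were chosen with earlier results of these data known. Beside the 8, the text names up to 5 list genes in the table by adjusted p, any that went against the others, and the 3 nearest patterns of SLC2A1 and of TXNIP. Rows named as nearest to LDHA, HK2, PDK1, PFKFB4 and ENO2 fall outside this rule, and were picked with their values in view. Alternatives changed the pseudocount, the filter, the scaling, the test, the replicate block and the samples.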

Additional observations from a re-analysis of the deposited data

How the results depend on the processing

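Each of the 8 genes kept its direction and its call under all 15 alternatives run. A call was the usual case in this table, with 46.1% of tested rows rising and 52.9% falling in the reported fit. The log2 change ranged from 3.30 to 3.91 for SLC2A1, 3.32 to 3.95 for HK2, 1.60 to 2.19 for PFKP, 1.59 to 2.31 for PFKFB4, 2.77 to 3.33 for ENO2, 1.92 to 2.61 for LDHA, 3.24 to 3.97 for PDK1 and -3.49 to -2.69 for TXNIP, and the highest adjusted p was 0.00989, for PFKFB4. Median-of-ratios scaling and equal sums of FPKM raised the log2 change of single rows by a median of 0.48 and 0.32, and that of the 8 genes by a mean of 0.49 and 0.33, so the fall of TXNIP was smaller under both. The median log2 change over all rows was -0.40 and -0.54 under these scalings, against -0.80 in the reported fit. Rises were 46.5% of the called rows in the reported fit and 52.8% under median-of-ratios scaling. An ordinary linear model called 787 rises and 1011 falls. Leaving out each library in turn gave 870 to 949 rises and 1047 to 1080 falls. With the replicate number as a block there were 946 rises and 1082 falls. Deviations of same-numbered samples correlated by 0.50, 0.072 and 0.52 for replicates 1, 2 and 3. H/R replicate 2 correlated best with control replicate 3, by a small margin (0.105). The numbers were not taken as pairs in the reported fit, and the cause of the shared deviations in replicates 1 and 3 was not tested. Depth is unknown, so the precision of low levels such as those of FBP1 and ARRDC4 cannot be given.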

Other observations

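LDHA and the transporter gene SLC2A3 followed each other closely over the 6 samples. The root mean square difference of their log2 values, after subtracting each row's control mean, was 0.084. Among rows with a gene symbol, the only ones compared, SLC2A3 was nearest to LDHA, before SLC2A14 (0.11) and LRCH1 (0.17). The pair was chosen after the values were seen, and reads can be split between SLC2A3 and SLC2A14. Among the rows with a symbol, HK2 and PDK1 were each other's nearest (0.24). For PFKFB4 the nearest rows were DNAJB1 (0.18), FOS (0.20) and FOSB (0.22), which like PFKFB4 stood lowest in H/R replicate 1 and highest in H/R replicate 2. FOS had 19.4, 46.5 and 29.5 FPKM in the H/R samples, against 7.24, 9.19 and 7.15 FPKM in the control samples. For ENO2 the nearest rows were STOM (0.14), BNIP3 (0.15) and SLC6A8 (0.16).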
